A study of Homo sapiens with 18 samples.

Results

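PIM1 (ENST00000373509), CISH (ENST00000491847), ID1 (ENST00000376112) and MYC (ENST00000621592) were followed here through all 18 long-read libraries as targets of Bcr-Abl signalling. They are 4 of the 13051 transcripts with a readthrough count. The 4 were chosen by their readthrough reads per library read by condition, over all 18 libraries, so their values are given as a description in every comparison, with no test. All cells were K562, a cell line derived from chronic myeloid leukaemia at the blast stage, whose growth requires the Bcr-Abl1 fusion kinase. Untreated cells form the groups CTRL and CTRLim, the latter being the control of the imatinib series. Imatinib, a Bcr-Abl1 inhibitor, was given at 1 µM for 1 h (IM 1h) or 18 h (IM 18h). JTE-607, which inhibits the cleavage endonuclease CPSF73, was given at 5 µM for 1 h (JTE 1h), and 110 mM KCl was given for 45 min as a hyperosmotic shock (KCl 45min). Each of the 6 groups has 3 libraries of chromatin-associated nascent RNA, depleted of polyadenylated RNA and rRNA and sequenced as PacBio long reads.

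A readthrough read is one whose 3′ end, the position of Pol II, lies more than 100 nt past the end of the last exon. Values are given as readthrough reads per 1000000 library reads (RPM). Such a value goes up when more polymerases transcribe the gene and also when fewer transcripts are cleaved, and these cannot be told apart here, since gene body reads were not analysed. It is a level of readthrough RNA, not of mRNA.

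Bcr-Abl1 is a fusion tyrosine kinase that is always active. It phosphorylates STAT5, which enters the nucleus and binds the palindrome TTCNNNGAA at its target genes, and it also drives the RAS-ERK and PI3K pathways. PIM1 is a serine/threonine kinase that promotes survival, and CISH is an SH2-domain protein that restrains cytokine receptors. Both are textbook STAT5 targets. ID1 is a helix-loop-helix protein without a DNA-binding domain that holds basic helix-loop-helix factors away from DNA. MYC is a transcription factor that drives genes of ribosome production and growth, and it is kept high by oncogenic kinases in leukaemia cells.

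The STAT5 palindrome sets CISH apart from PIM1 and ID1 in the 300 bases around the RefSeq gene start (250 before it and 50 after it, GRCh38). The CISH window, chr3:50611725-50612024 on the minus strand, holds 4 copies of TTCNNNGAA. The motif is its own reverse complement, so both strands were searched at once, and the 4 copies do not overlap. They begin at positions -241, -230, -129 and -112 relative to the start (-1 being the base just before it) and are printed in capitals because they are the only matches among the 3 genes.
CISH promoter: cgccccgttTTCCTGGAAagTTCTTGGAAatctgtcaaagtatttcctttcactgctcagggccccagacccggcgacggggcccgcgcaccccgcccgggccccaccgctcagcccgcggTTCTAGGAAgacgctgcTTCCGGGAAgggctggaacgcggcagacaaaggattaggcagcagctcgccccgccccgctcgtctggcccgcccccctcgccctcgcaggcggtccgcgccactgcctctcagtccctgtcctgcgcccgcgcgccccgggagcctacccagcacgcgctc
Of 35116 promoter windows of this length, 2689 (7.66%) hold at least 1 copy and 7 (0.0199%) hold 4 or more. The windows of PIM1 (chr6:37169902-37170201) and ID1 (chr20:31605039-31605338), both on the plus strand, hold 0 copies. A match to these letters is a description of the window and not a binding site.

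Each of these 3 genes has 1 poly(A) signal hexamer in the last 30 bases of the last exon, printed in capitals below because a read must run past this end, and 100 nt further, to be counted.
PIM1 exon end: cgttttttgAATAAAaaccttttgtcttaa
CISH exon end: acctctatAATAAAatgatacctttcatgt
ID1 exon end: tttgttATTAAAcaaataatttagatggtg
The ends lie at chr6:37175399-37175428, chr3:50606490-50606519 (minus strand) and chr20:31606481-31606510 (GRCh38). PIM1 and CISH carry AATAAA, which is present in 52.1% of 12704 last exon ends, and ID1 carries the variant ATTAAA, present in 14.8%. The hexamer is followed by 15, 16 and 18 bases in PIM1, CISH and ID1. In the 100 nt between the exon end and the readthrough boundary, GC content was 45% in PIM1, 48% in CISH and 59% in ID1, against a median of 42% over all matched ends (quartiles 34% and 53%).

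The libraries held between 8422 and 57982 readthrough reads, and 1 read was worth between 0.741 and 4.35 RPM. CTRLim, IM 1h and IM 18h form one library set, in which 84.3% to 91.6% of raw reads mapped, and CTRL, KCl 45min and JTE 1h form another, with 40.5% to 44.1%. Set and condition cannot be told apart between them, so each treatment is compared with the control of its own set. Of 10 erythroid markers of K562, 9 were in the table and all 9 had reads, whereas 8 lymphoid and myeloid markers gave 3 reads in total (3 of 8 in the table).

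PIM1 lies at chr6:37170152-37175428 on the plus strand, and its readthrough reads end beyond position 37175528, past the end of exon 6 (37173934 to 37175428). The nearest gene downstream on that strand, TBC1D22B, starts 82344 nt away. In CTRLim the 3 libraries held 19, 43 and 38 PIM1 reads, or 82.7, 79.6 and 77.2 RPM, a mean of 79.8 ± 2.74 (SD, n = 3). IM 1h held 3, 3 and 8 reads, or 4.46, 5.23 and 9.97 RPM (6.55 ± 2.98). IM 18h held 15, 41 and 26 reads, or 15.96, 32.1 and 19.3 RPM (22.4 ± 8.52). The 3 groups did not overlap: untreated libraries were highest, IM 1h lowest, and IM 18h lay between them. The log2 fold change against CTRLim was -3.50 (SE 0.346) in IM 1h and -1.80 (SE 0.287) in IM 18h, and from IM 1h to IM 18h it was 1.73 (SE 0.414). In CTRLim PIM1 ranked 46th of 13051 transcripts by pooled level, in IM 1h 1404th and in IM 18h 196th.

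CISH lies on the minus strand at chr3:50606490-50611761. The counted transcript is annotated as a retained intron, with exon 2 (50606490 to 50608142) as its last exon, and the counting boundary is 50606390. The next gene on the strand is a lncRNA 5342 nt away. CTRLim held 9, 17 and 21 CISH reads, or 39.2, 31.5 and 42.7 RPM (37.8 ± 5.72). In IM 1h there were 2, 1 and 3 reads, or 2.97, 1.74 and 3.74 RPM (2.82 ± 1.01). In IM 18h there were 1, 11 and 16 reads, or 1.06, 8.61 and 11.9 RPM (7.18 ± 5.54). Both imatinib groups lay wholly below CTRLim, but they overlapped each other, since library 1 of IM 18h was below all of IM 1h and the other two were above it. The log2 fold change against CTRLim was -3.57 (SE 0.491) in IM 1h and -2.25 (SE 0.414) in IM 18h, and between the time points it was 1.36 (SE 0.617).

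ID1 lies on the plus strand at chr20:31605289-31606510, with exon 2 (31606053 to 31606510) as its last exon and a boundary at 31606610. MIR3193 starts 676 nt downstream on the same strand, so reads that run far enough cross this miRNA gene. CTRLim held 8, 25 and 13 ID1 reads, or 34.8, 46.3 and 26.4 RPM (35.8 ± 9.98). IM 1h held 2, 2 and 0 reads, or 2.97, 3.49 and 0 RPM (2.15 ± 1.88), and the 0 of library 3 allows up to 3.74 RPM. IM 18h held 2, 4 and 5 reads, or 2.13, 3.13 and 3.70 RPM (2.99 ± 0.798). All 6 imatinib libraries were below all 3 of CTRLim, and the imatinib groups overlapped. The log2 fold change was -4.07 (SE 0.533) in IM 1h and -3.49 (SE 0.439) in IM 18h. With 15 reads over both time points ID1 was not fitted between them, and the pooled ratio of IM 18h to IM 1h was 1.58 (95% counting interval 0.468 to 6.80).

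The ID1 values rest on the control. CTRL, the untreated group of the other library set, held 5, 0 and 1 ID1 reads, or 13.9, 0 and 3.87 RPM (5.91 ± 7.15), all below CTRLim. The difference of CTRLim from CTRL was 2.57 on the log2 scale (SE 0.623). Against CTRL, the pooled ID1 ratio was 0.335 in IM 1h (95% counting interval 0.0695 to 1.41) and 0.529 in IM 18h (0.179 to 1.74), and libraries overlapped in both. The other genes kept their direction with CTRL as the control. For PIM1 the log2 fold change against CTRL was -3.23 in IM 1h and -1.55 in IM 18h, and for CISH it was -2.95 and -1.63. For MYC it was -0.36 and -0.95, and IM 1h overlapped CTRL.

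MYC lies on the plus strand of chromosome 8, from 127736231 to 127742951, with exon 3 (127740396 to 127742951) as its last exon and a boundary at 127743051. PVT1, a lncRNA gene, starts 51575 nt downstream on the same strand. CTRLim held 19, 31 and 30 MYC reads, or 82.7, 57.4 and 60.9 RPM (67.0 ± 13.7). IM 1h held 29, 21 and 35 reads, or 43.1, 36.6 and 43.6 RPM (41.1 ± 3.88). IM 18h held 24, 34 and 40 reads, or 25.5, 26.6 and 29.6 RPM (27.3 ± 2.13). The 3 groups did not overlap and stepped down with time, in contrast to PIM1, whose lowest libraries were those of IM 1h. The log2 fold change against CTRLim was -0.62 (SE 0.254) in IM 1h and -1.23 (SE 0.282) in IM 18h, and from IM 1h to IM 18h it was -0.59 (SE 0.251). The median of all 1720 transcripts between the time points was -0.30 in the same fit, so MYC lay below it. With TMM scaling the MYC value was -0.30, which cannot be set against that median because the scaling differs.

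**Figure D1:**
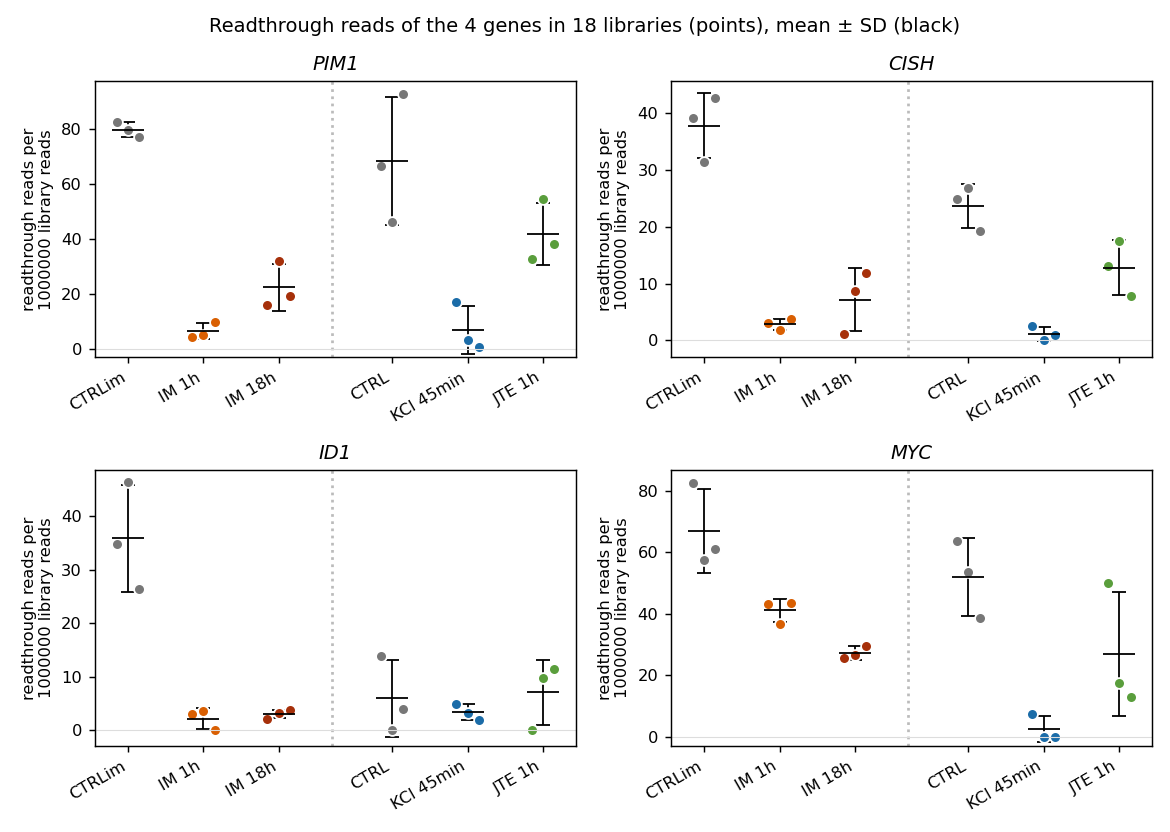
Readthrough reads per 1000000 library reads (y axis, a separate linear scale for each gene) of PIM1, CISH, ID1 and MYC in the 6 groups (x axis); each point is 1 library, black bars are the mean ± SD of 3 libraries, and the dotted line parts the 2 library sets. PIM1 is lowest in IM 1h and KCl 45min, MYC is lower in IM 18h than in IM 1h, and ID1 is above 20 RPM only in CTRLim.

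Set side by side, the 4 genes took 0.539% to 0.566% of all readthrough reads in the CTRLim libraries, 0.107% to 0.131% in IM 1h and 0.122% to 0.189% in IM 18h. Among 988 transcripts with at least 30 reads in IM 1h and CTRLim together, the log2 fold changes of ID1, CISH and PIM1 were the 3 lowest in that order, and MYC was 66th from the lowest. The median of these transcripts was 0.19. By edgeR's quasi-likelihood test at an adjusted p under 0.05, 1.32% were called lower and 0.202% higher, and in 5.47% all IM 1h libraries were below all CTRLim libraries, as in all 4 genes. In IM 18h against CTRLim, ID1 was 3rd, CISH 13th, PIM1 24th and MYC 99th from the lowest of 1386, whose median was -0.01. There 8.95% were called lower and 5.19% higher, and in 18.4% all libraries were lower, again as in all 4. Between IM 18h and IM 1h, 14.1% of 1720 transcripts were called lower, 4.19% were called higher, and 26.3% were lower in all libraries, among them MYC. Nothing is read from these counts, since the genes were chosen with these libraries in view.

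The PIM1 to MYC ratio of reads within a library, which does not depend on the library total, was 1.00, 1.39 and 1.27 in CTRLim. It was 0.103, 0.143 and 0.229 in IM 1h, below every other library in which it could be formed. In IM 18h it was 0.625, 1.21 and 0.650, with 1 library inside the range of CTRLim. The CISH to PIM1 ratio was 0.474, 0.395 and 0.553 in CTRLim and 0.667, 0.333 and 0.375 in IM 1h, on 1 to 3 CISH reads per library in the latter. In IM 18h it was 0.0667, 0.268 and 0.615.

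PIM1, CISH and MYC had lower readthrough levels after the hyperosmotic shock than in CTRL, with no overlap of libraries, and ID1 was within the range of CTRL. CTRL held 24, 19 and 24 PIM1 reads, or 66.5, 46.3 and 92.8 RPM (68.5 ± 23.3), and KCl 45min held 7, 1 and 1, or 17.0, 3.19 and 0.947 RPM (7.06 ± 8.72). All KCl libraries were below all CTRL libraries, with a log2 fold change of -3.49 (SE 0.641). For MYC, CTRL held 23, 22 and 10 reads, or 63.8, 53.6 and 38.7 RPM (52.0 ± 12.6), and KCl 45min held 3, 0 and 0, or 7.31, 0 and 0 RPM (2.44 ± 4.22). The zeros allow up to 9.56 RPM in KCl library 2 and 2.84 RPM in library 3, which is still under the lowest CTRL library. The log2 fold change of MYC was -4.68 (SE 0.736), and the pooled level was 31.7-fold lower (95% counting interval 10.3 to 158.4).

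CISH and ID1 had too few reads in this comparison for the minimum of 30, with 27 and 11, so 2 of the 4 genes passed it. CTRL held 9, 11 and 5 CISH reads, or 24.95, 26.8 and 19.3 RPM (23.7 ± 3.89), and KCl 45min held 1, 0 and 1, or 2.44, 0 and 0.947 RPM (1.13 ± 1.23). The groups did not overlap, the pooled level was 21.6-fold lower (95% counting interval 5.39 to 188.2), and with a minimum of 10 reads the log2 fold change was -4.12 (SE 0.870). ID1 held 2, 1 and 2 reads in KCl 45min, or 4.87, 3.19 and 1.89 RPM (3.32 ± 1.49), inside the range of CTRL. Its log2 fold change with a minimum of 10 reads was -0.94 (SE 1.06), and the pooled level was 2.07-fold lower with a 95% counting interval of 0.527 to 8.59, so a difference was not detectable at this depth.

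These values stand in a comparison in which many transcripts were lower. Of 378 transcripts tested, 20.9% were called lower and 4.23% higher, and in 28.0% all KCl libraries were lower. The median log2 fold change was -0.39, and MYC was 4th and PIM1 12th from the lowest. The KCl libraries also had a smaller share of readthrough reads, 2.15% to 2.68% of library reads against 3.32% to 3.55% in CTRL. The study lists a shorter median read length for KCl library 1 than for KCl libraries 2 and 3. It lists CTRL libraries 1 and 2 as shorter than CTRL library 3. An effect of read length on this comparison was not tested. Within the readthrough reads alone, the 4 genes took 0.0176% to 0.129% in KCl 45min and 0.382% to 0.507% in CTRL. Over the settings tried the log2 fold change lay between -5.26 and -2.61 for PIM1 and between -7.66 and -3.58 for MYC. Nothing is read from the counts of calls for the 4 genes, since the KCl and CTRL libraries were among those in view when they were chosen.

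With JTE-607, which acts on cleavage itself, the estimates of PIM1, CISH and MYC were negative against CTRL, and libraries overlapped in PIM1 and MYC. JTE 1h held 15, 28 and 44 PIM1 reads, or 32.6, 54.5 and 38.3 RPM (41.8 ± 11.3), overlapping CTRL, with a log2 fold change of -0.70 (SE 0.493). CISH held 6, 9 and 9 reads, or 13.1, 17.5 and 7.84 RPM (12.8 ± 4.83), all below CTRL, with -0.95 (SE 0.607). MYC held 23, 9 and 15 reads, or 50.1, 17.5 and 13.1 RPM (26.9 ± 20.2), where library 1 lay inside the CTRL range and the others below it, with -1.02 (SE 0.560). ID1 held 0, 5 and 13 reads, or 0, 9.72 and 11.3 RPM (7.02 ± 6.13), the 0 allowing up to 6.53 RPM. It had too few reads for the fit and overlapped CTRL, with a pooled ratio of 1.46 (95% counting interval 0.554 to 4.48).

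The median of all 969 transcripts tested in JTE 1h against CTRL was 0.49, so most transcripts had a positive estimate while those of PIM1, CISH and MYC were negative. MYC was 12th, CISH 14th and PIM1 34th from the lowest. In 1.86% of transcripts all JTE libraries were lower, CISH among them. By edgeR 0.103% (1 transcript) were called higher and 0.0% lower, with 108 at an unadjusted p under 0.05, and DESeq2 called 1. JTE library 1 stood apart, with 3.06% of library reads as readthrough against 5.40% and 5.05% in the others. The study lists a shorter median read length for library 1 than for the other JTE libraries. In CTRL, libraries 1 and 2 were listed as shorter than library 3. Read length was therefore not matched between JTE 1h and CTRL, and its effect was not tested. Without library 1 of JTE 1h the MYC log2 fold change was -1.82.

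**Figure D2:**
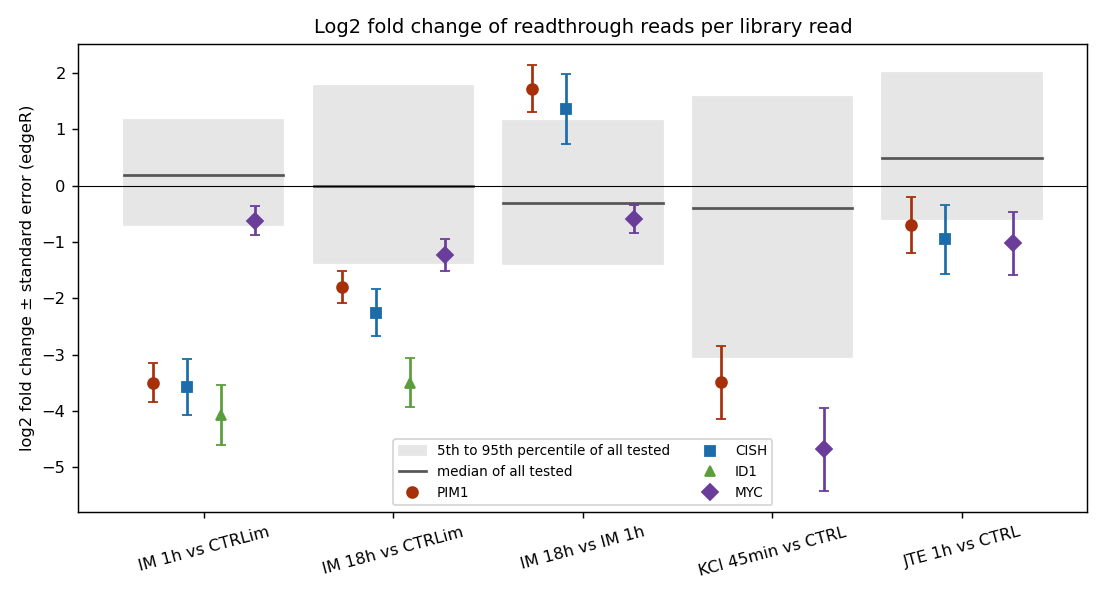
Log2 fold change of readthrough reads per library read (y axis, points with a standard error derived from the edgeR F statistic) of PIM1, CISH, ID1 and MYC in 5 comparisons (x axis), drawn where a gene had at least 30 reads. The grey box spans the 5th to 95th percentile of all transcripts tested and the grey line is their median. PIM1, CISH and ID1 lie below the box in both imatinib comparisons with CTRLim and MYC lies inside it, whereas PIM1 and MYC lie below it after KCl and PIM1, CISH and MYC lie below it with JTE-607.

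Ordered by mean level, PIM1 ran from CTRLim through CTRL, JTE 1h, IM 18h and KCl 45min to IM 1h, and among neighbours only JTE 1h and IM 18h had libraries that did not overlap. CISH had the order CTRLim, CTRL, JTE 1h, IM 18h, IM 1h and KCl 45min, with CTRLim apart from CTRL and CTRL apart from JTE 1h. For ID1, CTRLim stood apart and the neighbours JTE 1h, CTRL, KCl 45min, IM 18h and IM 1h all overlapped. MYC ran from CTRLim through CTRL, IM 1h, IM 18h and JTE 1h to KCl 45min, with IM 1h apart from IM 18h and JTE 1h apart from KCl 45min. Of the untreated groups, CTRLim was above CTRL without overlap in CISH (log2 fold change 0.62, SE 0.371) and ID1, and overlapped it in PIM1 (0.25, SE 0.336) and MYC (0.30, SE 0.338).

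Over the 18 libraries, log2(RPM + 1) of PIM1 and CISH had a Pearson correlation of 0.898, with 0.894 over the 9 libraries of the imatinib set and 0.911 over the other 9. PIM1 and MYC had 0.686, with 0.540 and 0.932 in the sets. ID1 differed between sets: with PIM1 its correlation was 0.811 in the imatinib set and 0.209 in the other, and with CISH it was 0.837 and 0.0146. ID1 and MYC had 0.188 over all 18. Libraries of one group share their treatment and their preparation, so these are descriptions.

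Among 909 transcripts with at least 100 reads, the 3 most like PIM1 by this correlation, other than the 4 genes, were MAGEA3 (0.757), DGCR8 (0.732) and CUTA (0.726). The 3 most like CISH other than the 4 genes were ENST00000215739 (0.760), C1QBP (0.759) and BHLHE40 (0.754). The 3 most like ID1 were ATF4 (0.750), a stress-response transcription factor, ESYT1 (0.675) and NAP1L4 (0.655). MYC had closer companions in DPH2 (0.915), TOMM40L (0.913) and NAXE (0.913). The mean level of DPH2, an enzyme of diphthamide synthesis on elongation factor 2, was 75.3 RPM in CTRLim, 52.0 in IM 1h and 18.7 in IM 18h, and 36.0 in CTRL and 2.75 in KCl 45min.

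Other genes of these pathways were taken as 6 lists with 91 genes, of which 82 were in the table. The lists were chosen with earlier results of these data known, so the p-values below are not independent support. They cover Bcr-Abl1 with its adaptors and STATs, further STAT5 targets, ERK feedback genes and targets, ID and SMAD genes, the MYC network and MYC targets. Most had few readthrough reads and between 7 and 15 reached the minimum of 30 in a comparison. In IM 1h against CTRLim, 0 of 13 were called by edgeR, with 1 at an unadjusted p under 0.05 and 0 by DESeq2, and their median was 0.24 against 0.19 over all tested. CRKL, an adaptor of Bcr-Abl1 and the gene of its list with the most reads, had a log2 fold change of 0.27 there (SE 0.387, edgeR adjusted p = 0.790). MCL1, an anti-apoptotic BCL2 family member and the STAT5 target with the most reads, had -0.44 (SE 0.405, edgeR adjusted p = 0.668).

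In IM 18h against CTRLim, 2 of 14 list genes were called lower and 0 higher, beside 8.95% lower and 5.19% higher over all 1386 transcripts (196 called in all), a share near the background. MCL1 held 26.1, 20.4 and 18.3 RPM in CTRLim and 11.7, 9.39 and 6.67 in IM 18h, without overlap, and fell by 1.18 on the log2 scale (SE 0.412, edgeR adjusted p = 0.0436). NOLC1, a nucleolar phosphoprotein and MYC target, held 17.4, 14.8 and 18.3 RPM in CTRLim and 7.45, 7.05 and 3.70 in IM 18h, and its log2 fold change was -1.47 (SE 0.478, edgeR adjusted p = 0.0289). The list median was -0.46 against -0.01 over all tested, and all 7 MYC targets tested had a negative value. Neither call was firm: 0 of the 14 were called without any one of the 3 CTRLim libraries or without library 3 of IM 18h, and 1 without library 2 of IM 18h. ID3, an ID1 relative and the gene of its list with the most reads, had -1.28 (SE 0.620, edgeR adjusted p = 0.171), and MLX of the MYC network had -0.18 (SE 0.461, edgeR adjusted p = 0.835).

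Between IM 1h and IM 18h the called list genes were all MYC targets, 5 of the 9 tested, all lower at 18 h, while 0 of the 6 genes tested from the other lists were called. Over all 1720 transcripts 14.1% were called lower and 4.19% higher. Since the lists were chosen with earlier results known, no conclusion about MYC targets is drawn from these calls. NPM1, a nucleolar histone chaperone, held 14.9, 12.2 and 17.4 RPM in IM 1h and 3.19, 3.13 and 4.45 in IM 18h, with a log2 fold change of -2.01 (edgeR adjusted p = 8.25e-04). CDK4, a G1 cyclin-dependent kinase, held 16.3, 15.7 and 26.2 RPM and then 2.13, 9.39 and 8.15, with -1.50 (edgeR adjusted p = 0.00351). In both genes the groups did not overlap. Their levels in untreated CTRLim were lower on average than in IM 1h, at 9.80 ± 7.78 RPM for NPM1 and 7.28 ± 4.70 for CDK4. Against CTRLim the log2 fold change of CDK4 was 1.46 in IM 1h (SE 0.496, edgeR adjusted p = 0.149) and -0.04 in IM 18h (SE 0.631, edgeR adjusted p = 0.975), and that of NPM1 was 0.90 in IM 1h (SE 0.521, edgeR adjusted p = 0.441). GNL3, a nucleolar GTPase, NOLC1, and NCL, the nucleolar protein nucleolin, had -1.09, -1.48 and -1.36 (edgeR adjusted p = 0.00736, 0.00766 and 0.0319). NPM1, CDK4 and NOLC1 passed the minimum of reads through their IM 1h reads alone, the group in which they were higher. The median of the 9 was -1.09, against -0.30 over all tested. Of the 5, only NOLC1 was also called in IM 18h against CTRLim, where NPM1 had too few reads to be tested. With TMM scaling 2 list genes were called and with DESeq2 1, and leaving out 1 library gave 2 to 5, with 2 called without library 2 of IM 1h and 3 without library 1 or 3 of IM 1h or library 3 of IM 18h.

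After KCl, 3 list genes were called lower and 1 higher of 7 tested, beside 20.9% lower and 4.23% higher over all 378 transcripts. EGR1, an immediate early transcription factor induced through ERK, held 10, 10 and 39 reads in KCl 45min and 1, 0 and 0 in CTRL. Its log2 fold change was 4.69 (SE 0.914, edgeR adjusted p = 7.42e-05), opposite in sign to the values of PIM1 and MYC. EGR1 passed the minimum of reads through its KCl 45min reads alone. No other gene of the ERK list had enough reads here, so the list as a whole was not tested. CRKL (-2.92, edgeR adjusted p = 0.00158) held 0, 0 and 6 reads in KCl 45min. NCL (-3.03, edgeR adjusted p = 0.00124) and ODC1 (-2.21, edgeR adjusted p = 0.00247), the rate-limiting enzyme of polyamine synthesis, were the other genes called lower. ODC1 passed the minimum of reads through its CTRL reads alone. Most reads of CRKL (13, 7 and 6) and NCL (13, 10 and 3) were also in CTRL. MCL1 had -0.03 (SE 0.514, edgeR adjusted p = 0.975). Without KCl library 3, the deepest of its group, 0 of the list genes were called. There was 1 without CTRL library 1, and there were 2 without CTRL library 2 or 3. In JTE 1h against CTRL, 0 of 15 list genes were called by edgeR and 0 by DESeq2, with 1 at an unadjusted p under 0.05, and their median was 0.09 against 0.49 over all tested.

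**Figure D3:**
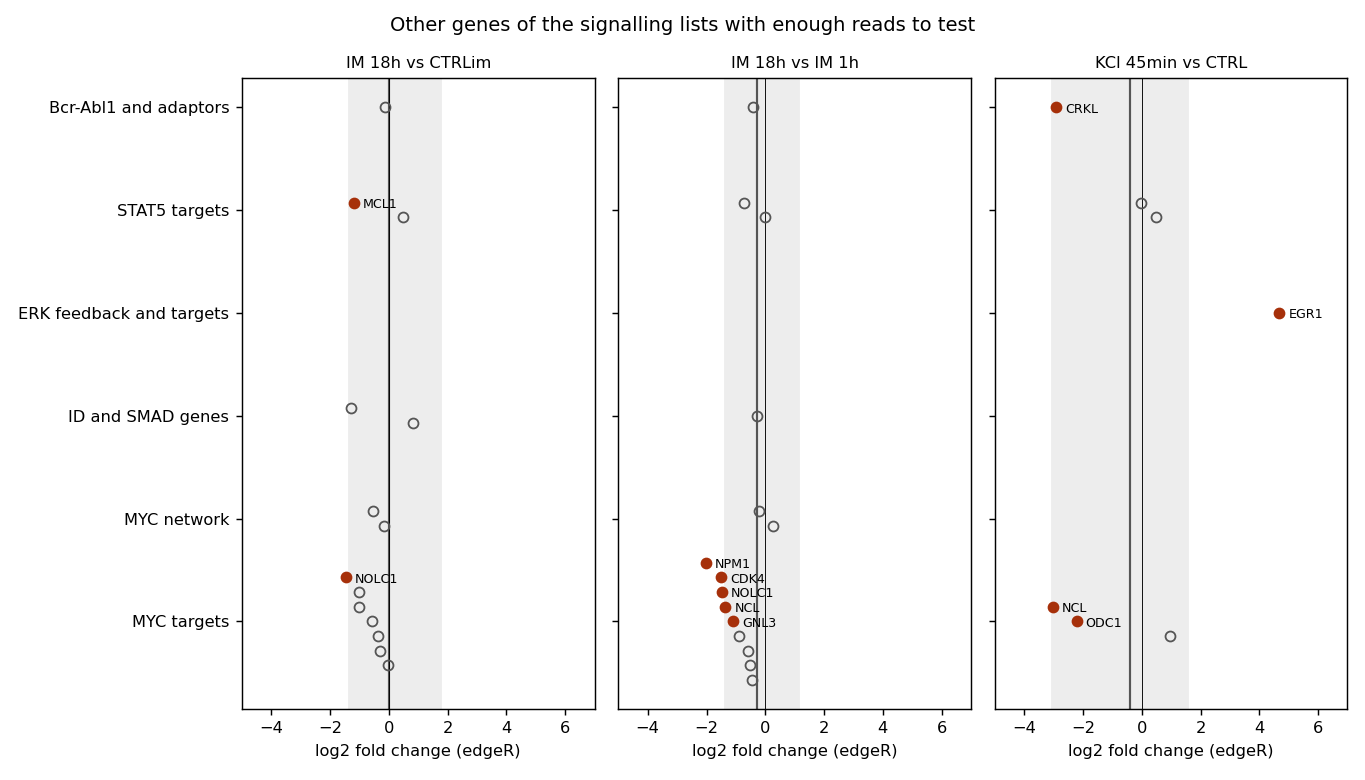
Log2 fold change (x axis, edgeR) of the genes of 6 signalling lists (y axis) with at least 30 reads in 3 comparisons; filled and named points have an adjusted p under 0.05, open points do not, the grey band spans the 5th to 95th percentile of all transcripts tested and the grey line is their median. Of the 9 MYC targets tested between IM 1h and IM 18h all lie below 0 and 5 are filled, and EGR1 at 4.69 is the only filled point to the right of 0.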

How the data were processed

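Readthrough reads were counted by the authors in 18 PacBio libraries of K562 nascent RNA, 3 per group, labelled as biological replicates. The authors trimmed adapters with cutadapt, mapped with minimap2 to GRCh38.p14, collapsed duplicates by molecular identifier, removed polyadenylated and multiply mapped reads, and counted reads per gene at the last exon of its farthest-reaching annotated transcript. The deposited values are raw counts, 1 per read, neither normalized nor pooled. Library totals were the reads per library listed by the study after removal of polyadenylated reads and splicing intermediates.

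The genes and lists were chosen with earlier results of these data known. The 4 genes were selected with all 18 libraries in view, so the tests planned for them in the KCl and JTE-607 comparisons are not reported, and only genes of the lists were tested. edgeR 4.0.16 (glmQLFit, glmQLFTest) in R 4.3.3 was fitted to the 6 libraries of a comparison, for transcripts with at least 30 reads, with Benjamini-Hochberg adjustment over all of them at 0.05, and was tested on simulated data. Each standard error (SE) was derived as the absolute log2 fold change over the square root of the F statistic. DESeq2 1.42.0 was an alternative, as were TMM scaling, readthrough or mapped reads as totals, a minimum of 10 reads, all 18 libraries in the fit, CTRL as control, a replicate block and leaving out each library. Named were the 4 genes, the 3 transcripts most correlated with each (Pearson, log2(RPM + 1), at least 100 reads), and of the lists every gene called (up to 8 per comparison) and the gene with the most reads. Counting intervals are 95% and exact, and a count of 0 allows up to 3 reads; both cover counting error only. Of 13051 transcripts, 12704 were placed by GENCODE 44. Positions of the last exons come from GENCODE and promoter windows from RefSeq, both on GRCh38. The authors' gene body, splicing and short-read data were not analysed here. Python 3.11.15, pandas 2.3.3, scipy 1.17.1 and matplotlib 3.10.9 were used.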

Additional observations from a re-analysis of the deposited data

Results flagged for a closer look

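Between IM 1h and IM 18h, 5 of 9 MYC targets tested differed by the direct test of the time points (edgeR, adjusted p under 0.05), all lower at 18 h: NPM1 by a log2 fold change of -2.01, CDK4 by -1.50, NOLC1 by -1.48, NCL by -1.36 and GNL3 by -1.09. MYC itself had -0.59 over the same libraries, and the median of all transcripts tested was -0.30, with 14.1% of 1720 called lower. Of the genes of all 6 lists, 2 were called here with TMM scaling and 1 with DESeq2. These lists were chosen with earlier results of the data known, so the 5 calls are not independent support. NPM1, CDK4 and NOLC1 also passed the minimum of reads through their IM 1h reads alone, the group in which they were higher. Only NOLC1 of the 5 was also called in IM 18h against CTRLim, where NPM1 had too few reads to be tested and CDK4 was not called (log2 fold change -0.04, SE 0.631, edgeR adjusted p = 0.975).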

How the results depend on the processing

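All 211 values of PIM1, CISH, ID1 and MYC under the alternatives kept their direction. In the imatinib comparisons they stayed within the replicate spread, except for 1 value of CISH and 2 of MYC. No such count is given for KCl and JTE-607, where it would rest on the tests not reported. Fits with too few reads are not among the 211. For ID1 these included CTRL as control, and in IM 1h the fit without library 2 of CTRLim. For CISH they included the fits between the time points without library 2 or 3 of IM 18h. With CTRL as control the CISH log2 fold change in IM 1h was -2.95. From IM 1h to IM 18h, MYC had -0.298 with TMM scaling and -0.349 with readthrough reads as the total. In JTE 1h, leaving out 1 library gave MYC -1.82 to -0.64. The replicate numbers were not treated as pairs in the main fits. Correlations of same-numbered deviations ran from -0.0384 to 0.239 over 912 transcripts, and in each comparison 2 of 3 correlated best with their own number. In the imatinib comparisons they were at most 0.0786. For replicates 1, 2 and 3 they were 0.206, 0.0476 and 0.218 in KCl 45min against CTRL. In JTE 1h against CTRL they were 0.239, 0.0136 and 0.223. Same-numbered libraries of that set were thus alike in part. A replicate block raised the transcripts called in JTE 1h from 1 to 4, and gave MYC after KCl -4.56.

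Counts of transcripts called moved more than the genes did. In IM 1h against CTRLim 15 became 4 with DESeq2, 5 with all 18 libraries in the fit, 202 with CTRL as control, and 8 to 22 without 1 library. In IM 18h against CTRLim 196 became 96 with DESeq2, 113 with all 18, and 116 to 189 without 1 library. Between the time points 315 became 203 with TMM, 89 with DESeq2, 112 with all 18, and 174 to 273 without 1 library. After KCl 95 became 256 at a minimum of 10 reads, 63 with DESeq2, and 41 to 75 without 1 library. With JTE-607 1 became 0 with TMM or readthrough totals, 30 with all 18, and 0 to 69 without 1 library, the highest without library 1 of JTE 1h. Of list genes, IM 1h had 3 with CTRL as control. IM 18h had 1 with TMM, readthrough or mapped totals, 0 with 10 reads, DESeq2 or all 18, and 0 to 2 without 1 library. Between the time points there were 2 with TMM, 3 with readthrough totals, 1 with DESeq2, 2 with all 18, and 2 to 5 without 1 library. After KCl there were 8 with 10 reads and 0 to 4 without 1 library, and with JTE-607 1 with all 18 and 0 to 1 without 1 library. The causes were not tested. Depth limited ID1 most, with at most 5 reads per library outside CTRLim and JTE 1h.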
